A study of Mus musculus with 4 samples.

Results

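The miR-200 clusters and the epithelial splicing regulators are 7 genes that maintain the epithelial state, and their chromatin was examined in NMuMG, a mouse cell line established from normal mammary gland epithelium. The members were taken by name: the microRNA genes Mir200b, Mir200a and Mir429, which form 1 cluster, Mir200c and Mir141, which form another, and the genes Esrp1 and Esrp2. They are 7 of 37252 genes annotated by GENCODE vM1 on the 20 chromosomes used, in the mouse genome build mm9. Accessible chromatin was measured by ATAC-seq, in which the Tn5 transposase inserts sequencing adapters into open DNA. The data are 3 lists of called peaks for 4 samples, 1 sample per group. Cells in complete medium received vehicle (HCl with BSA) or TGFβ1 at 5 ng/ml and were taken after 2 h, and each of these samples has its own list. In the other experiment serum and insulin were withheld for 6 h before vehicle or the same dose of TGFβ1 was given for 10 min, and the labels of both samples name 1 list, which was therefore not assigned to a condition. There were no replicates, so no test between conditions was possible, and all counts describe these lists. The 10 min list is named after TGFβ treatment alone. The lists do not give depth. The study states read totals for each library, not used as data here, and in complete medium the vehicle library, with the shorter list, is the deeper of the pair. The lack of a call is not a measurement of closed chromatin.

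MicroRNAs are cut as hairpins from longer primary transcripts, and their mature strands repress messenger RNAs that pair with the seed near the 5′ end. The miR-200 family represses Zeb1 and Zeb2, transcription factors that in turn bind E-box sequences and repress the miR-200 clusters, a double-negative loop that separates epithelial from mesenchymal cells. ESRP1 and ESRP2 are RNA-binding proteins of epithelial cells that direct the epithelial splicing of transcripts such as Fgfr2, Cd44 and Ctnnd1. TGFβ drives the epithelial-mesenchymal transition (EMT), in which both systems are known to be lost.

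The mature 3p strands are shown because their seeds divide the family into the groups that share targets. The capitals mark the seed, bases 2 to 8, and the sequences are those of RefSeq for the assembly GRCm38.p6. All 5 hairpins were identical to mm9 at the annotated coordinates.
miR-200b-3p: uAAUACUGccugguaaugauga
miR-200c-3p: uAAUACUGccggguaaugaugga
miR-429-3p: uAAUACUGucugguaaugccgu
miR-200a-3p: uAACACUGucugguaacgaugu
miR-141-3p: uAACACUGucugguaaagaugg
The first 3 strands share the seed AAUACUG, and among 1738 mature mouse sequences no others have it. The last 2 share AACACUG, which differs by 1 base and is likewise found in no other mature sequence of the table. Each cluster thus holds a member of each seed group: Mir200b, Mir429 and Mir200a in the first cluster, and Mir200c and Mir141 in the second. The 5p strands were less alike: miR-200b-5p and miR-200a-5p shared the seed AUCUUAC, and those of Mir429, Mir200c and Mir141 were each found once.

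The first cluster lies on chromosome 4, with Mir200b at chr4:155429790-155429859 (ENSMUSG00000065549.1), Mir200a at chr4:155429005-155429094 (ENSMUSG00000065400.1) and Mir429 at chr4:155428014-155428096 (ENSMUSG00000065427.1). The second lies on chromosome 6, with Mir200c at chr6:124668340-124668408 (ENSMUSG00000065462.1) and Mir141 at chr6:124667932-124668003 (ENSMUSG00000065474.1). Esrp1 spans chr4:11259080-11313930 (ENSMUSG00000040728.9) and Esrp2 chr8:108654219-108660874 (ENSMUSG00000084128.3). All 7 are on the minus strand.

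The annotated start of a microRNA gene is the 5′ end of its hairpin and not the start of its primary transcript, so the annotated transcripts that contain the hairpins were examined too. Gm13648, a processed transcript that begins 4052 bp upstream of Mir200b, contains Mir200b and Mir200a in introns and Mir429 in an exon. The protein-coding gene Ttll10 begins 3594 bp upstream of Mir200b and contains all 3 hairpins in its introns. Gm15884, another processed transcript, begins 441 bp upstream of Mir200c and 846 bp upstream of Mir141 and holds both in introns.

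The DNA upstream of these noncoding transcripts and of Esrp2 is shown for the presence or absence of the E-box CACCTG (read on either strand, CAGGTG on the other), the sequence bound by ZEB and SNAIL factors. Each line is the 250 bp before the annotated start in mm9, read 5′ to 3′ along the minus strand, with E-box letters in capitals.
Gm13648, chr4:155433912-155434161: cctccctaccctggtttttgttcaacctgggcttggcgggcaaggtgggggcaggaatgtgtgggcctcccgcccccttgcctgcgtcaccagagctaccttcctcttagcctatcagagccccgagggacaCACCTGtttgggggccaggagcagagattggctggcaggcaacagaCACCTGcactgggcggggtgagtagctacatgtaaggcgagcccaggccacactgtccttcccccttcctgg
Gm15884, chr6:124668850-124669099: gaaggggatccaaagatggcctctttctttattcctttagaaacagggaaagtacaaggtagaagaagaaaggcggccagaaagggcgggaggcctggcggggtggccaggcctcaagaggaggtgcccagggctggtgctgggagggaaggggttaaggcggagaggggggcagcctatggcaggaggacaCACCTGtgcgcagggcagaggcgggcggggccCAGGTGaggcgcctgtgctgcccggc
Esrp2, chr8:108660875-108661124: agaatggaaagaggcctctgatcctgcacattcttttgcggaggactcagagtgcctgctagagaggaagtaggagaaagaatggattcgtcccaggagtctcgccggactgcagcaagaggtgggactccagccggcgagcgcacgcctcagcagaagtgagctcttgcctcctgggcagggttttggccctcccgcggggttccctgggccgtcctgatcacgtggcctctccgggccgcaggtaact
The stretches before Gm13648 and Gm15884 held 2 E-boxes each, and that before Esrp2 held none. At Gm13648 the E-boxes began 118 and 72 bp upstream of the start. At Gm15884 they began 58 and 26 bp upstream, and a further E-box, which runs past the printed stretch, began 1 bp upstream. In the window from 250 bp before to 50 bp after the start, 20% of 22350 protein-coding genes have an E-box.

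Over a wider window, 1000 bp to each side of the annotated start, the hairpin of Mir200b had 7 E-boxes. At least as many were found at 0.381% of 1576 microRNA genes and at 0.671% of protein-coding genes, and the median was 1 in both sets. Gm13648 had 6 (at least as many at 1.9% of protein-coding genes), Gm15884 had 5 (4.61%), and Mir200a, Mir200c and Mir141 had 4 each (13.5% of microRNA genes). Esrp2 had 3 (25% of protein-coding genes), and Mir429 had 2 (49.2% of microRNA genes). The hairpins of a cluster lie close together, so the 4 E-boxes of Mir200a are all among the 7 of Mir200b, and Mir200c and Mir141 share all 4. The genes compared were not matched for base composition. A match describes the sequence alone, and binding was not measured.

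To ask where chromatin was called open at these genes, intervals narrower than 150 bp were dropped and neighbours with a gap under 1000 bp were merged into regions, which left 19648 vehicle, 38532 TGFβ and 26732 10 min regions. A gene counted as covered when a region lay within 1000 bp of the start of any of its transcripts (transcription start site, TSS). Of the 7 members, only Esrp2 was covered, and it was covered in each of the 3 lists. The 5 microRNA genes and Esrp1 were covered in none. Over all genes the share covered was 27.5% with vehicle (95% Wilson interval 27.1 to 28%), 32.6% with TGFβ (32.1 to 33%) and 31.4% at 10 min (30.9 to 31.8%), and 26.7% were covered in all 3 lists. For protein-coding genes the shares were 41%, 47.6% and 46.3%, with 39.9% in all lists and 50.4% in none, so 1 of the 2 Esrp genes is near the background. For microRNA genes they were 4.95%, 6.79% and 6.15%, so 0 of 5 is near the background too. The hairpin start is rarely covered, and 92.1% of microRNA genes had a region in none of the lists.

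No member changed its class between vehicle and TGFβ. Across all genes 5.5% were covered in the TGFβ list and not in the vehicle list, and 0.462% the other way round. Gm13648, Ttll10 and Gm15884, the transcripts that contain the hairpins, had no region at the TSS in any list.

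**Figure D1:**
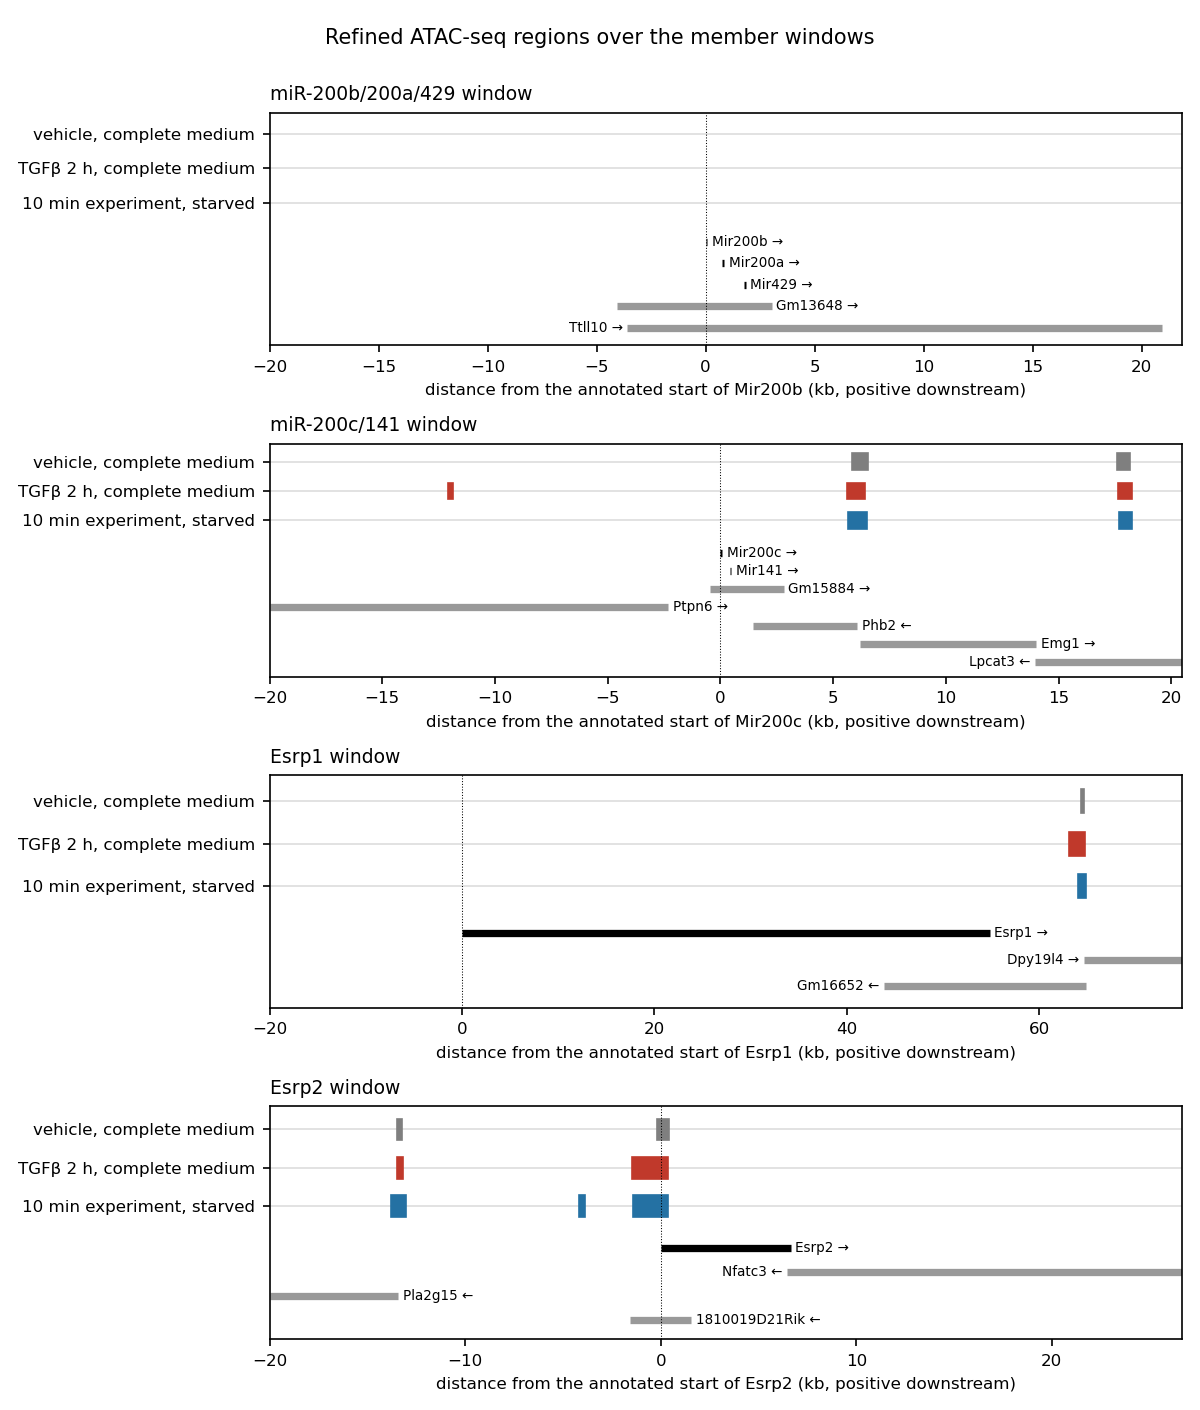
Refined regions (coloured bars) of each list over the windows of the 4 loci, against distance in kb from the annotated start of the first-named member. Black bars are the members, grey bars other annotated genes, and arrows give the direction of transcription. The window of the miR-200b cluster is empty in every list, the body of Esrp1 holds no region, and the start of Esrp2 holds a region in every list.

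Around each locus a window was set over the gene bodies and 20 kb to each side, which gave 4 windows of 41.8 kb (miR-200b cluster), 40.5 kb (miR-200c cluster), 94.9 kb (Esrp1) and 46.7 kb (Esrp2). Together they held 5 vehicle regions, 6 TGFβ regions and 6 regions of the 10 min list, which covered 2522 bp, 5415 bp and 5166 bp of 224 kb. All 5 vehicle regions overlapped a region of both other lists, as did 84.7% (84.2 to 85.2%) of all vehicle regions. The TGFβ list had 1 region in the windows that overlapped no vehicle region, beside 52.4% of regions (51.9 to 52.9%) over its whole length. This count is small and depends on merging. As deposited, 4 of 10 TGFβ intervals in the windows overlapped no vehicle interval. The 10 min list likewise had 1 region that overlapped neither complete-medium list, beside 12.2% (11.8 to 12.6%) over the whole list. In each list 5 of the window regions lay at the TSS of an annotated gene, beside 44.9%, 28.4% and 38.4% of all regions in the vehicle, TGFβ and 10 min lists. Most of the regions in the windows were thus at promoters, that of Esrp2 and those of neighbouring genes.

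The window of the miR-200b cluster, with Mir200b, Mir200a and Mir429, was empty. It held 0 regions in each list and 0 intervals even before narrow ones were dropped. In the vehicle and TGFβ lists the nearest region to Mir200b lay 53.9 kb upstream, at the start of the gene 9430015G10Rik (chr4:155483762-155484378 and chr4:155483765-155484505). In the 10 min list the nearest was another, narrow region 38 kb upstream (chr4:155467908-155468193). For Mir200a the distances were 54.7, 54.7 and 38.8 kb, and for Mir429 55.7, 55.7 and 39.8 kb. Such distances are usual for microRNA genes. The nearest region was at least as far away at 46.3% (vehicle), 34.1% (TGFβ) and 47.7% (10 min) of them. An empty window of this kind, without a region in any list, was found at 50.5% of microRNA genes (48 to 53%).

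At the miR-200c cluster, with Mir200c and Mir141, the nearest region was the promoter of neighbouring genes. Emg1, which encodes a ribosome biogenesis factor, and Phb2, which encodes a prohibitin of mitochondria, are transcribed apart from 1 shared promoter downstream of the hairpins. That promoter was called in every list with the capped score of 1000, at chr6:124661883-124662589 in the vehicle list (707 bp wide), chr6:124662007-124662796 with TGFβ (790 bp) and chr6:124661915-124662741 at 10 min (827 bp). Its near edge was 5.82, 5.61 and 5.67 kb from Mir200c and 5.41, 5.21 and 5.26 kb from Mir141. The distances from Mir200c were exceeded or equalled by 84.4%, 77% and 80.7% of microRNA genes. The other region shared by the 3 lists was in Lpcat3, a phospholipid acyltransferase gene, at the start of one of its shorter transcripts, where it was 583, 650 and 609 bp wide and capped in each list.

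The TGFβ-only region of the windows lay in this locus, inside an intron of Ptpn6, the gene for the phosphatase SHP-1, and 12.0 kb upstream of Mir200c measured from the region's centre. It was 224 bp wide and had a score of 578, near the lowest score in the list (540), and the TSS of Ptpn6 itself was not covered in any list. Its sequence is given because it is the only region of the 4 windows called after TGFβ and in neither other list. It is read on the plus strand.
TGFβ-only region, chr6:124680286-124680509: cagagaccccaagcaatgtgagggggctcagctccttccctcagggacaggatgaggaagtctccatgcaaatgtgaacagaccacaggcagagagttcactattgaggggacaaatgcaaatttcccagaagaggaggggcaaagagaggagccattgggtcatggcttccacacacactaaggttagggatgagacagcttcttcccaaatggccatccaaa
The sequence had a GC content of 51.8% and no CpG. It held no match to any of the 5 motifs searched, which were TGANTCA (AP-1), CAGACA or GTCTAGAC (SMAD), CACCTG (E-box), AACNNGTT (Grainyhead-like) and CCGGAAGT (ETS), each on both strands.

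**Figure D2:**
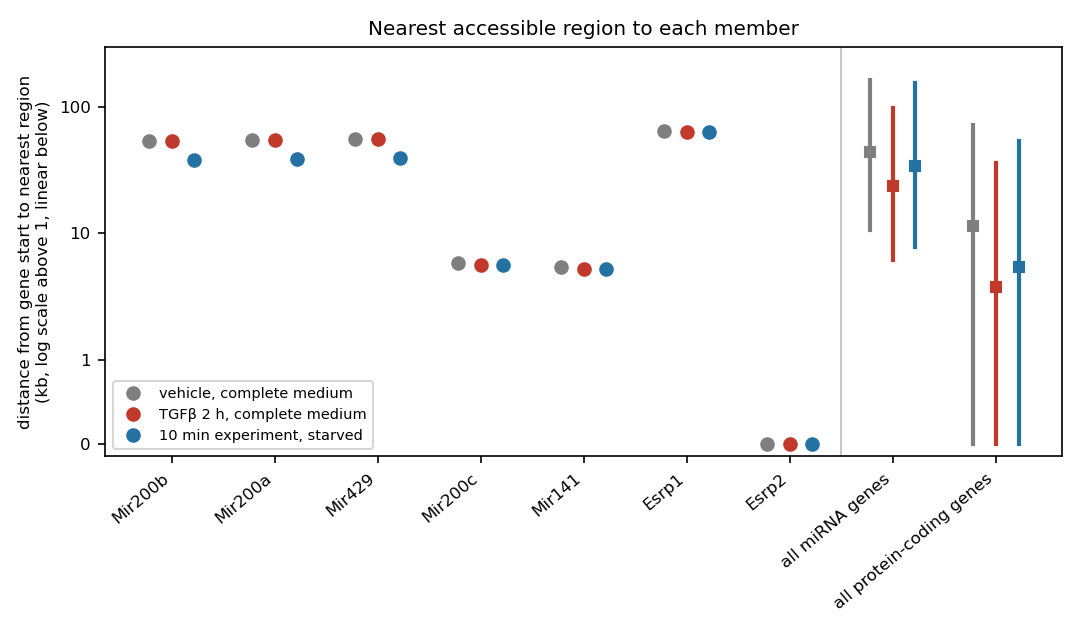
Distance in kb from the annotated start of each member to the nearest region in each list (circles), beside the median (squares) and quartiles (lines) over all 1576 microRNA genes and all 22350 protein-coding genes. The axis is logarithmic above 1 kb and linear below. Esrp2 is at 0 in every list, Mir200c and Mir141 lie between 5.21 and 5.82 kb, and the other members lie beyond 38 kb.

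Esrp1 and Esrp2, which act on overlapping sets of exons, differed in their called regions. Esrp1 had no region within 1000 bp of any of its 5 transcript starts, and no region anywhere over its body of 54851 bp, in any list. Among 4837 protein-coding genes of at least 50 kb, a body without a region was found at 33.3% (vehicle), 19.2% (TGFβ) and 26.6% (10 min), and 17.4% (16.3 to 18.5%) had no region there in any list. The nearest region lay 64.4 kb (vehicle), 63.2 kb (TGFβ) and 64 kb (10 min) from the start, beyond the 3′ end of the gene. At least as great a distance was found at 26.6%, 18.7% and 22.9% of protein-coding genes.

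That distant region was the promoter shared by Dpy19l4 and the noncoding gene Gm16652, which runs back into the 3′ part of Esrp1 on the other strand. It was 338 bp wide with a score of 1000 in the vehicle list (chr4:11249224-11249561), 1600 bp with 1000 after TGFβ (chr4:11249178-11250777) and 837 bp with 708 at 10 min (chr4:11249048-11249884). The TGFβ region was made of 3 deposited intervals. The first (495 bp) overlapped the vehicle region, and the other 2, of 204 bp (score 837) and 242 bp (score 1000), lay in an intron of Gm16652 and overlapped no interval of the vehicle or 10 min list.

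The starts of Esrp1 and Esrp2 were alike in GC content and differed in CpG content. Within 500 bp of the start the GC content was 63% at Esrp1 and 62.7% at Esrp2, while the ratio of observed to expected CpG was 0.585 and 0.754. A start was called CpG-rich at a GC content of at least 50% and a ratio of at least 0.6, so Esrp1 fell just below this limit and Esrp2 above it. For the shares by composition, a start was the 5′ end of the gene alone and not any transcript start. CpG-rich starts of protein-coding genes were covered in 69.9% (vehicle), 77.3% (TGFβ) and 76.6% (10 min) of cases, and CpG-poor ones in 13.6%, 18.5% and 17.2%. A set of 821 genes had a GC content within 5 percentage points and a ratio within 0.05 of those of Esrp1. Of these, 47.4% (44 to 50.8%) had a region in none of the lists, beside 20.7% of CpG-rich and 79.6% of CpG-poor starts. Whether composition bears on the missing call at Esrp1 was not tested. All hairpin starts and the starts of Gm13648, Ttll10 and Gm15884 were CpG-poor, with ratios from 0.131 (Mir200b) to 0.432 (Mir200c).

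**Figure D3:**
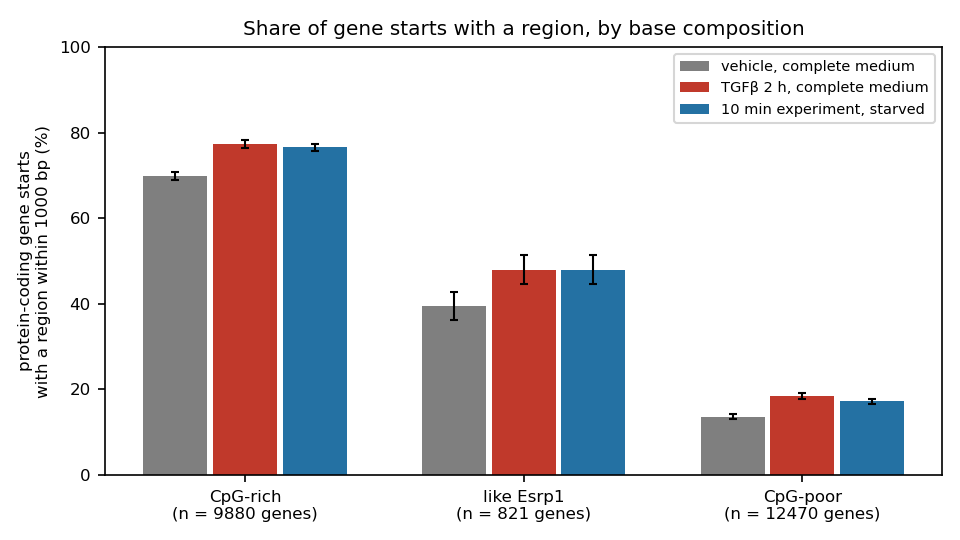
Share of protein-coding gene starts with a region within 1000 bp of the 5′ end of the gene, by list, for CpG-rich starts, starts with a composition like that of Esrp1, and CpG-poor starts. Bars start at 0 and lines are 95% Wilson intervals, which cover counting error only. The genes like Esrp1, which also belong to the other classes, lie between them, at 39.5%, 48% and 48% in the vehicle, TGFβ and 10 min lists.

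Repeated sequence, in which reads are hard to place, was rare around the starts of the members by a count of short words. Of the 32-base words within 1000 bp of each start, 99.9% or more occurred once in the chromosomes used, and at Gm15884 98.4% did. The rest of the windows and the body of Esrp1 were not searched in this way. Such words do not stand for the study's paired reads, and why a call was missing was not tested. Genes that epithelial or all cells use can also lack a call in these lists. Ptbp1, a splicing repressor of nearly all tissues, was covered in no list, and neither was Epcam, the gene for an epithelial adhesion molecule. Cdh1, which encodes E-cadherin, was covered in the 10 min list alone, and Krt8 and Krt18, the keratin genes of simple epithelia, in all 3 lists. Cldn4, the gene for a tight junction claudin, was covered in the TGFβ list alone (188 bp, score 658). Of the 8 epithelial markers examined 2, 3 and 3 were covered in the vehicle, TGFβ and 10 min lists, of 7 fibroblast markers 1 in each (Col1a1), of 4 blood markers none, and of 4 endothelial markers 1 in the TGFβ list (Kdr).

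Esrp2 was the only member with a region at its start. In the vehicle list its start was spanned by a region of 653 bp with a score of 989 (chr8:108660435-108661087). In the TGFβ list the region was 1852 bp wide with the capped score of 1000 (chr8:108660481-108662332), and in the 10 min list 1794 bp wide with a score of 896 (chr8:108660508-108662301). The score ranks peaks within a list and is not comparable between lists. The first 4 of the 9 annotated transcript starts of Esrp2, at 0 to 289 bp from its 5′ end, lie inside the region in every list, and the other 5, at 1878 to 3899 bp, lie outside it. An E-box 89 bp downstream of the start was inside the region in each list.

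The greater width in the TGFβ and 10 min lists came from a second interval upstream. The interval over the start was 653, 660 and 663 bp wide (vehicle, TGFβ, 10 min). The TGFβ list had in addition an interval of 316 bp with a score of 696, from 1458 to 1143 bp upstream of the start, and the 10 min list one of 384 bp with a score of 807, from 1427 to 1044 bp upstream. Merging joined each to the interval over the start. The vehicle list had no interval there. Among 9024 protein-coding genes covered in both the vehicle and the TGFβ list, 4.74% (4.32 to 5.2%) had a TGFβ interval wholly within 2 kb upstream that overlapped no vehicle interval, and among 8997 covered in the vehicle and 10 min lists 2.75% (2.43 to 3.1%) had such a 10 min interval. The region at Esrp2 was 2.84 times wider in the TGFβ than in the vehicle list, a ratio reached by 5.33% of those genes against a median of 1.08. For the 10 min list the ratio was 2.75, reached by 8.84% against a median of 1.33.

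The upstream interval lies in an exon of 1810019D21Rik, a long noncoding RNA gene transcribed from the other strand across the start of Esrp2 (chr8:108659300-108662425). Its central 300 bp in the TGFβ list are shown, on the plus strand, with a match to the Grainyhead-like motif AACNNGTT in capitals. Grainyhead-like factors are activators of epithelial genes.
Interval upstream of Esrp2, chr8:108662025-108662324: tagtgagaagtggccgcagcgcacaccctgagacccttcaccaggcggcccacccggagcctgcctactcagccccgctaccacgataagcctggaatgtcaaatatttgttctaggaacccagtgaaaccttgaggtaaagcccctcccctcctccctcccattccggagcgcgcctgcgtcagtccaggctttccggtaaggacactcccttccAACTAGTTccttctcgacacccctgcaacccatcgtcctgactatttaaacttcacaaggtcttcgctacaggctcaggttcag
The stretch had a GC content of 57% and no match to the AP-1, SMAD, E-box or ETS motif. Over whole regions, 5.78% of the TGFβ list and 7.52% of the 10 min list had a match to AACNNGTT.

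The 10 min list also had a region of its own 4.02 kb upstream of Esrp2, between genes, 314 bp wide with a score of 898. Its central 300 bp are shown because neither list from complete medium had a region there, and they are read on the plus strand.
10 min region, chr8:108664749-108665048: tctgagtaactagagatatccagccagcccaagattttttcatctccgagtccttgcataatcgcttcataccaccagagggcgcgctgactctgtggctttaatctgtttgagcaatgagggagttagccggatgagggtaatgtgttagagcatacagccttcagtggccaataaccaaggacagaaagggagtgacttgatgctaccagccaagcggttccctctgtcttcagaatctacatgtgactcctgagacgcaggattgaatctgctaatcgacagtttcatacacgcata
It had a GC content of 47.7% and no match to any of the 5 motifs. This list differs from the others in medium, time and library at once, and which of these the difference goes with cannot be told apart. The remaining region of the Esrp2 window was the promoter of Pla2g15, a lysosomal phospholipase gene, called with a score of 1000 in all lists and 241, 299 and 785 bp wide in the vehicle, TGFβ and 10 min lists.

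**Figure D4:**
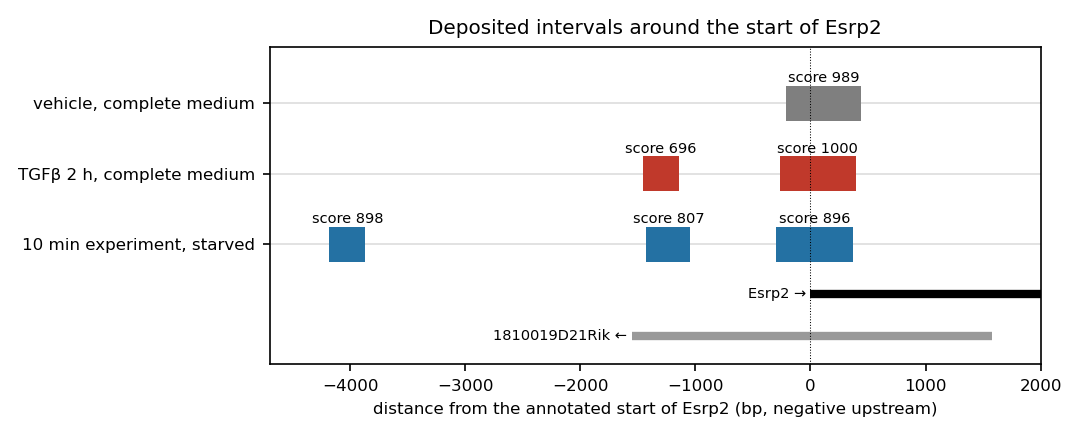
Deposited intervals of each list around the start of Esrp2, against distance in bp from the annotated start (negative is upstream), with the authors' score printed above each. The black and grey bars are Esrp2 and 1810019D21Rik, with arrows for the direction of transcription. The interval over the start is alike in the 3 lists, and the interval from 1458 to 1143 bp upstream in the TGFβ list overlaps one of the 10 min list and none of the vehicle list.

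Across the regions of the windows, motif matches within 200 bp of the region centre were few. In the vehicle list the 5 regions included 0 with an AP-1, 2 with a SMAD, 2 with an E-box, 0 with a Grainyhead-like and 1 with an ETS match, beside 32.3%, 28.7%, 23.5%, 4.75% and 4.72% of all vehicle regions. In the TGFβ list the 6 regions included 1, 2, 2, 0 and 1 in the same order, beside 38.5%, 35%, 24.1%, 5.21% and 2.78%. The 10 min list had 0, 2, 2, 0 and 1 of 6, beside 32.2%, 28.9%, 25.8%, 5.24% and 3.77%. Some of these matches lie in DNA that no interval covers. In the TGFβ and 10 min lists the centre of the Esrp2 region falls in the gap between its intervals, and its SMAD and E-box matches lie there, while the E-box counted at Pla2g15 in the vehicle and TGFβ lists lies outside the narrow interval. The AP-1 match was in the 204 bp interval in an intron of Gm16652, which overlapped no interval of the vehicle or 10 min list. The ETS matches were in the promoter of Emg1 and Phb2. With 5 or 6 regions a list, these counts are too small to set apart from the shares over all regions.

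To place the members in their network, genes upstream and downstream of them were examined at their TSS. Of 52 protein-coding genes in these lists 36 were covered with vehicle, 44 with TGFβ and 37 at 10 min (69.2%, 84.6% and 71.2%, beside 41%, 47.6% and 46.3% of all protein-coding genes). There were 8 genes covered in the TGFβ and not in the vehicle list, beside 7.24% (6.91 to 7.59%) of all protein-coding genes, and 0 the other way round, beside 0.622%. The TGFβ list had more regions in all, and the part of that in these counts was not tested.

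Among the repressors of the epithelial state, Zeb1, a main target of miR-200, was covered in the TGFβ (366 bp, score 1000) and 10 min lists (806 bp, score 786) and not in the vehicle list, where its nearest region was 177 kb away. The promoter of Zeb1 held 2 E-boxes between 250 bp before and 50 bp after its start. Zeb2, its paralogue and also a miR-200 target, was covered in all 3 lists, though at an alternative transcript start, since its 5′ end was 6.9 to 6.91 kb from a region. Snai1 and Snai2, which encode the SNAIL and SLUG repressors, were covered in all lists, and Twist1 in none.

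Among the 11 activators of epithelial genes, 5 were covered with vehicle, 7 with TGFβ and 5 at 10 min. Ovol2, which encodes a repressor of Zeb1, was covered in the TGFβ list alone (169 bp, score 561), and so was the ETS factor gene Ehf (280 bp, score 751). Elf3, another epithelial ETS factor gene, Klf4, Klf5 and Grhl1 were covered in all lists, and Grhl2, an activator of miR-200 and Esrp1, was covered in all lists at an alternative start only. Grhl3, Ovol1, Trp63 and Trp73 were covered in none.

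Of the 16 other splicing regulators, 12 were covered with vehicle, 14 with TGFβ and 11 at 10 min. Rbfox2, Mbnl1, Qk and Hnrnpm, which take part in mesenchymal splicing programmes, were covered in all lists. Mbnl1 and Hnrnpm were covered at an alternative start, with the region nearest to the 5′ end 13.1 to 26.1 kb and 1.09 to 1.24 kb away. The neuronal regulators Nova1 (434 bp, score 705) and Nova2 (235 bp, score 700) were covered in the TGFβ list alone. Celf2 was covered in both complete-medium lists, at an alternative start with the nearest region to its 5′ end 7.72 to 7.82 kb away, and not in the 10 min list, and Rbfox1 and Ptbp1 in none. Of 10 genes with exons that ESRP proteins switch, 9 were covered with vehicle, 10 with TGFβ and 9 at 10 min, among them Fgfr2, Cd44 and Ctnnd1 in all lists. The annotated record of Fgfr2 is unusually long, with 36, 66 and 44 regions in its window (vehicle, TGFβ, 10 min). A region lay 0.427, 0 and 0.238 kb from the 5′ end of that record, and its other starts were not examined singly. Enah, which encodes an actin regulator, was covered in the TGFβ list alone, by a region of 187 bp with a score of 563. Splicing itself was not measured.

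Of 11 further targets of the miR-200 family, 8, 10 and 9 were covered in the vehicle, TGFβ and 10 min lists. The polycomb gene Bmi1, the fibronectin gene Fn1 and the actin regulators Cfl2 and Msn were covered in all lists. Tgfb2, which encodes a TGFβ ligand, was covered in the TGFβ (460 bp, score 677) and 10 min lists (600 bp, score 757), Kdr, a receptor gene of endothelial cells, in the TGFβ list alone (199 bp, score 617), and Wasf3 in none.

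**Figure D5:**
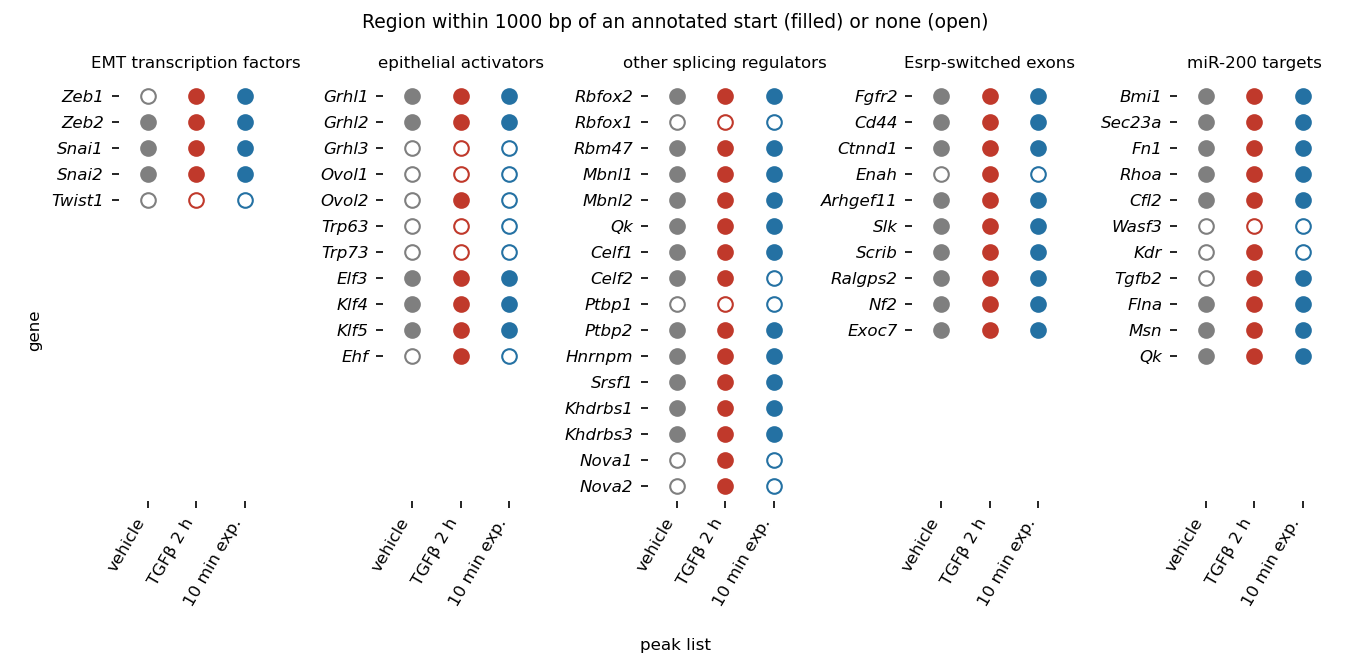
Genes of 5 lists around the miR-200 and ESRP network (rows) in the 3 peak lists (columns). A filled circle marks a region within 1000 bp of an annotated transcript start and an open circle none. Zeb1 and Tgfb2 are filled in the TGFβ and 10 min lists and open in the vehicle list, and Ovol2, Ehf, Nova1, Nova2, Enah and Kdr are filled in the TGFβ list alone.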

How the data were processed

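The deposited files were peak lists, 1 line per summit. Per the labels and the study's methods, the authors trimmed reads, aligned them to mm9, called peaks with MACS2 2.1.2 in the ENCODE ATAC-seq pipeline and kept peaks by the irreproducible discovery rate (IDR). The score deposited by the authors is this scaled IDR, from 540 to a cap of 1000. What served as replicates for it was not settled, since the labels give 1 sample per condition. For the 10 min TGFβ sample a characteristics field gives the other time, and the title was followed.

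Regions were formed by the study's rule (at least 150 bp, gaps under 1000 bp merged) and shared at 1 bp of overlap. All 84912 regions lay inside the mm9 chromosomes. Genes came from GENCODE vM1 and sequence from NCBIM37 (mm9). Motifs were exact matches on both strands. Scripts used Python 3.11.15, numpy 2.4.6, pandas 2.3.3, scipy 1.17.1 and matplotlib 3.10.9, and were tested on simulated data. Wilson intervals at 95% cover counting error only. The lists hold no read counts, and the read totals that the study states per library were not used as data.

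The members and gene lists were chosen with earlier results of these data known. By rule all members are named, and from each gene list the genes covered with TGFβ and not vehicle, the reverse, and up to 3 others. Further genes of the lists, such as those covered nowhere, were named after their values were seen. The CpG classes, word counts, E-box counts over 1000 bp, and the interval and width shares at Esrp2 were added after the values were seen. Mir24-1 and Spi1 were not found under these symbols. The sequence before the start of 1 member and its motif matches are not reported here.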

Additional observations from a re-analysis of the deposited data

How the results depend on the processing

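Of 126 recomputed values for 28 results, 103 stayed equal or within 1.5 times and 23 moved. The number of members covered at the TSS and their classes were the same under every alternative for refinement, minimum width, score, list length, TSS window (200, 500 and 2000 bp) and transcript starts. The number of TGFβ-only regions in the windows, 1 in the text, was 4 for intervals as deposited and 4 when only touching intervals were merged, 0 with a minimum width of 300 bp, 0 for scores at or above the list median, 0 for lists of equal length and 3 when the centre had to lie inside a region of the other list, where 3 TGFβ regions were shared. It was 0 with flanks of 5 kb and 2 with 50 kb. The windows then held 1, 1 and 2 regions (vehicle, TGFβ, 10 min) with 1 shared at 5 kb, and 11, 13 and 13 with 11 shared at 50 kb. As deposited, the TGFβ list had 10 intervals there. Searching whole regions gave 1 vehicle and 4 10 min regions with an E-box, 4 TGFβ regions with a SMAD match, and 1 TGFβ and 1 10 min region with a Grainyhead-like match. Wider flanks add regions by construction, and whole regions can be longer or shorter than the window around the centre. The TGFβ-only region of the text, 224 bp wide, falls below the minimum width of 300 bp. Where gaps were not merged, the TGFβ intervals in the intron of Gm16652 and upstream of Esrp2 counted on their own. The TGFβ-only region of the text, with a score of 578, was also lost when lists were cut by score or to equal length. Under the centre rule, the merged TGFβ regions at Esrp2 and at Gm16652 had their centres outside the vehicle regions. For the other moves the cause was not tested. No paired analysis was possible because no condition had more than 1 list. With 1 list per condition and no read counts per region, neither the variation between cultures nor the coverage behind a missing call can be given.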

Other observations

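Other microRNA genes known from epithelial and mesenchymal cells gave a further picture of hairpin loci. Of 23 such genes, 0 had a region within 1000 bp of the hairpin start in any list. Within 20 kb of the hairpin 13 had a region with vehicle, 18 with TGFβ and 17 at 10 min. The opposite share, that of all microRNA genes without a region there, was 64.8%, 52.3% and 60%. Of the 23 genes, 5 had no region there in any list, beside 50.5% of all microRNA genes. Named after their values were seen, Mir10b, Mir143, Mir145, Mir199a-2 and Mir214 were the 5 genes with a region in the window in the TGFβ and not in the vehicle list, beside 13.1% (11.5 to 14.8%) of 1576 microRNA genes, and 0 genes showed the reverse, beside 0.571%. For the cluster of Mir143 and Mir145, microRNAs of smooth muscle, the nearest region lay 58.3 and 59.6 kb away with vehicle, 5.3 and 3.95 kb with TGFβ and 5.28 and 3.92 kb at 10 min. Mir199a-2 and Mir214, which are cut from 1 transcript antisense to Dnm3, had distances of 84.2 and 89.8 kb with vehicle, 1.73 and 7.29 kb with TGFβ and 10.3 and 15.9 kb at 10 min. Hairpins of 1 cluster share their windows and are not independent. The 5 genes without a region in the window in any list were Mir205 and Mir203, which are epithelial, and Mir34b, Mir34c and Mir204. Mir182, Mir183 and Mir96 had 1 region there in each list. Mir21, a microRNA abundant in many cell types, had 4, 6 and 5 regions, the nearest 2.57 kb away in each list.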
